A study of Mus musculus with 38 samples.

Results

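Heterotrimeric G protein subunits and RGS proteins (regulators of G protein signaling) were examined in activated and neighboring granule cells of the mouse dentate gyrus. The members were all genes of the count tables whose symbol marks a G alpha, G beta or G gamma subunit or an RGS protein, without regard to their values. This gave 53 of 23420 genes: 16 encoding G alpha, 5 G beta and 10 G gamma subunits, 20 RGS proteins and 2 proteins named for binding RGS proteins (Rgs7bp and Rgs9bp). All mice were male C57BL/6J animals of 8 to 12 weeks with the Arc::dVenus transgene, where the promoter of the activity-induced gene Arc drives a destabilized fluorescent protein. The 12 FC mice had been fear conditioned, the 4 NS mice had been placed in the context with tones but without shocks, and both were sampled 24 h later. The 3 HC mice were home-cage controls without training. For 10 of the 14 NS and HC libraries a further label names another library than the title does, of the other cell type in 6. Titles were used throughout, and the pairing of these libraries by mouse rests on them. From each mouse 10 dVenus+ and 10 dVenus- granule cells were aspirated from slices and sequenced as 1 pool each, which gave 38 libraries, 2 from each animal. Each is a pool of few cells, picked by their reporter fluorescence. The FC mice were sequenced in 3 submissions and the 7 other mice in a further submission, so a difference between FC and the other mice and one between submissions cannot be told apart. In such pools fewer cells with a transcript and less of it per cell cannot be told apart.

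A receptor activated by its ligand makes the G alpha subunit exchange GDP for GTP, and G alpha and the G beta-gamma dimer then act on their effectors. Gs and Golf raise cyclic AMP through adenylyl cyclases, Gi and Go lower it, and Gq and G11 activate phospholipase C beta. RGS proteins end the signal by speeding up GTP hydrolysis on G alpha: the R4 family (Rgs2, Rgs4, Rgs8) is small and acts on Gi/o, Gq or both, the R7 family (Rgs6, Rgs7, Rgs9, Rgs11) is stable only as a dimer with the G beta subunit encoded by Gnb5, and the R12 family includes Rgs10 and Rgs14. In the brain, Rgs2 is known as a gene induced by neuronal activity and Rgs14 as a gene of pyramidal neurons of hippocampal area CA2.

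Between 1352288 and 18394761 reads per library were counted on genes (median 8013005), and members took between 0.0595% and 0.551% of them. Levels are given as normalised CPM: counts scaled to each library's reads on genes multiplied by its TMM factor from edgeR. These factors differed between libraries. In FC dVenus+ libraries, 386 counts of Adcy1 in 5266354 reads (mouse 05) and 1717 in 6102202 (mouse 01) both gave 217. Levels, overlaps and directions within mice in normalised CPM rest on these factors. Arc, the gene behind the reporter, was at 477 to 1539 normalised CPM in FC dVenus+ libraries and at 0 to 172 in FC dVenus- libraries. In 19 of 19 mice there was more of it in dVenus+ cells. In NS and HC mice, as titled, it was at 147 to 862 in the 7 dVenus+ libraries and at 0 to 4.96 in the 7 dVenus- libraries. The 9 genes taken as granule cell markers were Prox1, C1ql2, Dsp, Calb1, Dock10, Maml2, Slc17a7, Camk2a and Neurod2. How specific they are to granule cells was not tested. They summed to 338 to 2657 normalised CPM in FC dVenus+ (median 1056) and 1500 to 3635 in FC dVenus- libraries (median 2310). Of the 9, 4 were called lower in FC dVenus+ cells. The 15 microglial markers summed to 42.3 to 2705 in FC dVenus+ (median 365) and 2.504 to 1245 in FC dVenus- libraries (median 63.6). Their sum was the higher in dVenus+ cells in 10 of 12 FC, 4 of 4 NS and 3 of 3 HC mice, and 5 of the 11 tested in FC were called higher. Of the interneuron markers 1 was called lower in FC dVenus+ cells, with a summed level of 15.2 to 404 in dVenus+ (median 55.4) and 29.5 to 2482 in dVenus- libraries (median 139). Astrocyte markers summed to 1564 to 1718 in HC dVenus+ and 571 to 844 in HC dVenus- libraries, higher in 3 of 3 HC, 2 of 4 NS and 3 of 12 FC mice. They reached 1552 in FC dVenus+, 2813 in FC dVenus-, 3233 in NS dVenus+ and 3948 in NS dVenus- libraries. Oligodendrocyte markers summed to 137 to 2978.5 in FC dVenus+ and 203 to 4361 in FC dVenus- libraries. They reached 2313 in NS dVenus+ and 3946 in NS dVenus- libraries. Their sum was higher in dVenus+ cells in 4 of 12 FC, 2 of 4 NS and 1 of 3 HC mice. What these markers contribute to the results on members was not tested.

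A member was tested in a group if no fewer libraries than that group's number of mice reached 10 counts for it. Among FC mice 32 members reached this, among NS mice 32 and among HC mice 29, with 27 in all 3 groups. The filter kept 18 members out of all 3 groups. Gnat1, the rod transducin, and Rgs1 had no count in any of the 38 libraries, which allows up to 0.00976 CPM each over all reads (3 counts). Gnb3, Gna14, Gnat3 and Rgs18 had counts in 1 library each, and Gna12, Gna15, Gnat2, Gng8 and Rgs22 in 4 to 8. These limits cover counting error only.

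To compare genes with each other, the normalised CPM was divided by the length of the gene's exons in kb. In FC dVenus- libraries the G alpha subunit with the highest median was Gnas (Gs), at 22.0 normalised CPM per kb, followed by Gnaq (Gq) at 21.8 and Gna11 (G11) at 20.6. Across the 12 libraries these levels ran from 6.81 to 45.9, from 10.5 to 34.1 and from 2.54 to 38.3, so the order of the 3 lay within their spread. Gnao1, which encodes the Go subunit abundant in brain, was sixth at 9.26, after Gnai1 at 14.3 and Gnal, the Golf subunit, at 11.0. Such ranks depend on the length used, that of all annotated exons, which was 11053 bases for Gnao1 and 3135 for Gnai1. Without division by length, Gnao1 had a median of 102 normalised CPM, above Gna11 at 84.5 and Gnai1 at 44.9. It was then below Gnas at 246, Gnaq at 135 and Gnal at 123. The same limit holds for the other classes. Among G beta subunits Gnb1 stood first, with 120 normalised CPM per kb and 65.5% of the G beta level of a library in the median (range 35.7% to 73.2%). Gnb5, the partner of R7 proteins, had 31.9 and Gnb2 26.4, while Gnb4 and Gnb3 were near or at 0.

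The G gamma subunits were led by Gng10 at 61.8, Gng2 at 54.7 and Gng3 at 43.6 normalised CPM per kb in FC dVenus- libraries, and their ranges overlapped (20.0 to 185, 13.6 to 91.5 and 7.79 to 97.7). Exons of Gng10 overlap a read-through transcript on the same strand, so its reads may be shared. Among RGS genes and anchors, Rgs7bp, the membrane anchor of R7 dimers, was highest at 37.5, followed by Rgs14 at 21.2, Rgs4 at 16.0 and Rgs7 at 11.2. In FC dVenus+ libraries the order of this class differed. Rgs2 stood first at 32.8 normalised CPM per kb, with Rgs7bp at 30.6, Rgs7 at 28.0 and Rgs4 at 26.3. Gnb1 and Gng10 kept the highest median in both cell types of FC mice.

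**Figure D1:**
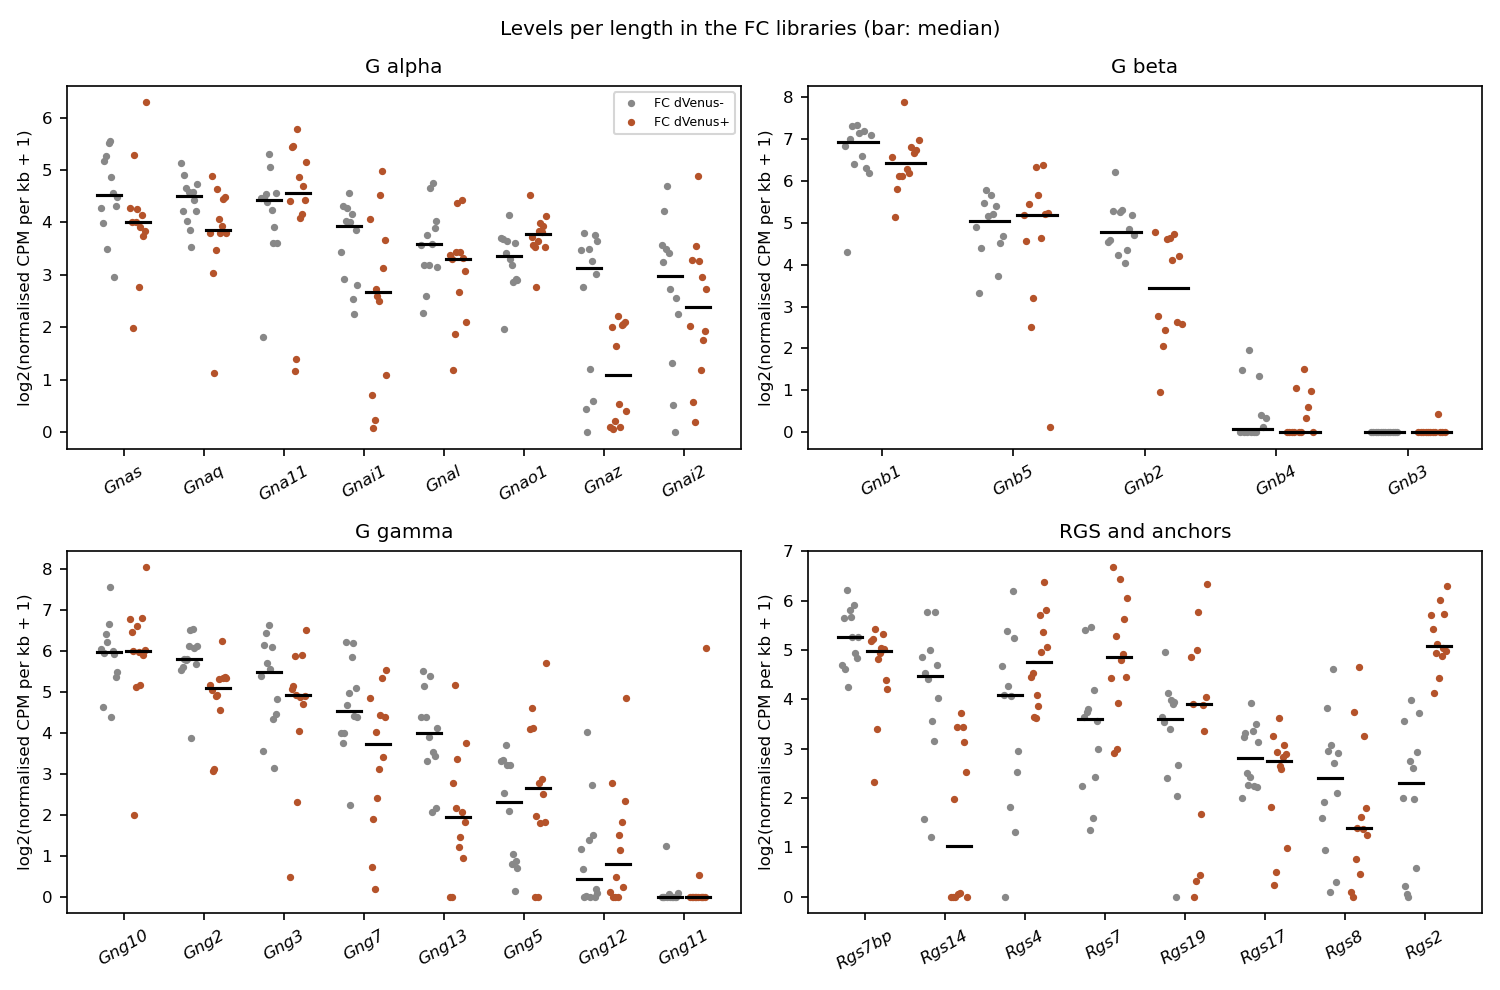
Levels of the members with the highest medians in each class in the 12 FC dVenus- (grey) and 12 FC dVenus+ libraries (brown), as log2(normalised CPM per kb of exon + 1) on the vertical axis. Each point is 1 library and each bar a median. The dVenus+ points of Rgs2 all lie above its dVenus- points, and 6 of the 12 dVenus+ points of Rgs14 lie at or near 0.

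The comparison of dVenus+ with dVenus- cells within FC mice asked which members differed in cells with a reporter signal 24 h after training. Of the 32 members tested, 3 were called (adjusted p under 0.05 and absolute log2 fold change over 1, edgeR's quasi-likelihood test with the mouse as block). Rgs2 and Rgs7 were higher and Rgs14 was lower in dVenus+ cells. Over all 9709 genes tested in FC mice 4.35% were called, 1.5% higher and 2.84% lower, beside 2 and 1 of the 32 members. Rgs2 was the 1 member higher in dVenus+ cells of every FC mouse (0.536% of all genes), and 0 were lower in every mouse (1.09%). At an unadjusted p under 0.05, 2 members were higher and 8 lower, against 6.49% and 11.3% of all genes. The median log2 fold change was -0.44 over the members and -0.11 over all genes tested.

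**Figure D2:**
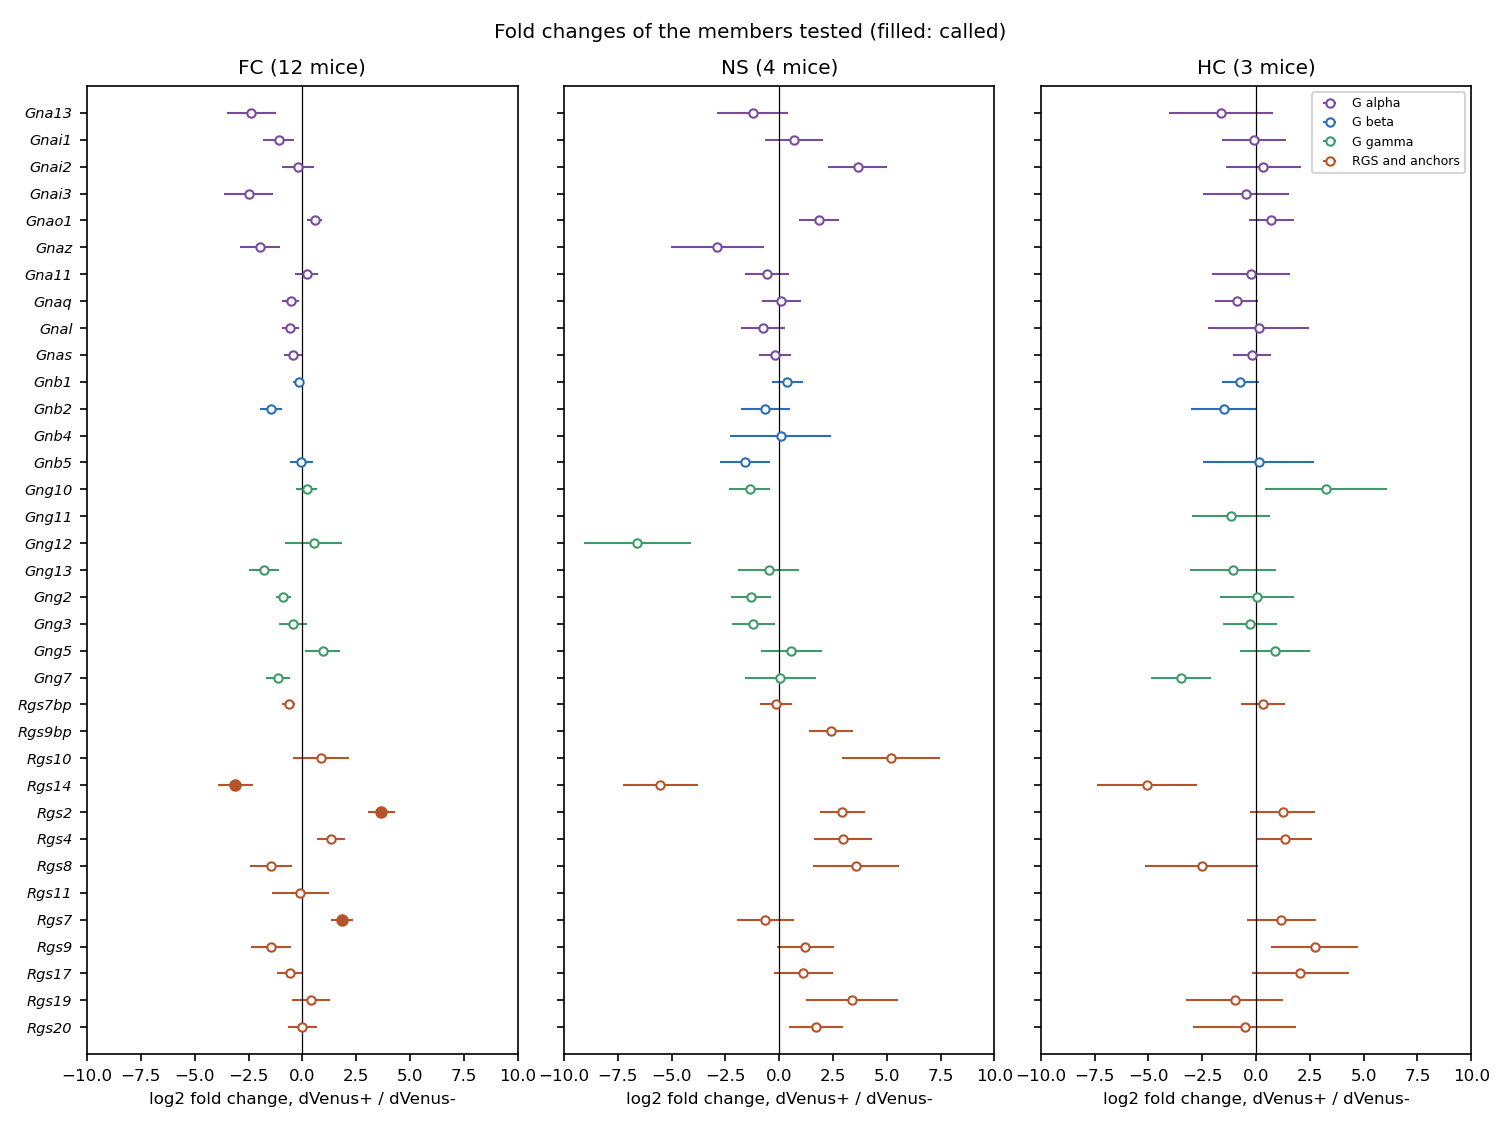
Log2 fold changes (dVenus+ over dVenus-, horizontal axis) with standard errors for every member tested in FC, NS and HC mice, from edgeR, ordered by class. Filled points passed the test, which was the case for Rgs14, Rgs2 and Rgs7 in FC mice only in these 3 fits. Error bars are wider in NS and HC mice, with a median standard error of 1.32 and 1.72 against 0.64 in FC mice.

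Rgs2, the member of the R4 family known for its preference for Gq, showed the largest rise. In FC mice the dVenus+ libraries held 59.7 to 282 normalised CPM (median 119) and the dVenus- libraries 0 to 53.8 (median 14.8). Every dVenus+ library lay above every dVenus- library, which held for 0.0927% of the genes tested in FC mice. The reverse held for 0.0309% of genes and for 0 members. The log2 fold change was 3.66 (SE 0.63, adjusted p = 8.23e-04), a 12.7-fold higher level. No dVenus+ library had fewer than 192 reads on Rgs2. In the 3 sequencing submissions that hold the FC mice, Rgs2 was higher in 2 of 2, 4 of 4 and 6 of 6 mice, with log2 fold changes of 3.05, 5.83 and 2.95, none of which passed the test in a submission alone (adjusted p = 0.521, 0.227 and 0.0902).

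The same direction was present for Rgs2 in mice without shocks. In NS mice the dVenus+ libraries had 322, 65.2, 65.6 and 673 normalised CPM and their dVenus- partners 279, 4.33, 4.99 and 44.4. In HC mice the dVenus+ libraries had 104, 32.6 and 29.3 and their partners 54.4, 12.5 and 7.98. Within each mouse the dVenus+ library was the higher, but over the groups the values overlapped, through mouse 18 in NS and mouse 15 in HC. The log2 fold changes of 2.94 in NS (SE 1.05, adjusted p = 0.493) and 1.23 in HC mice (SE 1.51, adjusted p = 0.830) did not pass the test. In a fit of the 7 NS and HC mice together, added after the values were seen, it was 1.96 (SE 0.79, adjusted p = 0.217). By normalised CPM, 19 of 19 mice over the 3 groups had more Rgs2 in dVenus+ cells, which was the case for 8 of the 6621 genes tested in all 3 groups (0.121%). The others were Arc itself, Bdnf, Inhba, Malat1, Mtdh, Ptprz1 and Sorcs3, named after their values were seen. In HC mouse 15 the direction of Rgs2 rests on the TMM factors. Per reads on genes alone, Rgs2 was lower in dVenus+ cells of that mouse. The share of genes was taken in normalised CPM only. The difference between FC and HC mice in the Rgs2 fold change was 2.25 on the log2 scale (SE 1.29, adjusted p = 0.577 for the interaction in edgeR), and that between FC and NS mice 0.64 (SE 1.22, adjusted p = 0.960).

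In 2 FC mice, 05 and 06, the dVenus+ library had the lower sum of microglial markers of the pair (957 against 1245 and 258 against 394). There Rgs2 was at 108 and 122 normalised CPM in dVenus+ and at 0.146 and 0 in dVenus- cells. In these mice Rgs14 was at 0 and 41.9 in dVenus+ and at 227 and 86.1 in dVenus- cells, and Rgs7 at 230 and 42.0 against 75.0 and 77.9. A fit chosen after the values were seen left out mice 07 and 09, whose dVenus+ libraries had the highest microglial sums. In it the log2 fold change of Rgs2 was 4.11 (adjusted p = 0.00232 in edgeR). Rgs14 (-2.79, adjusted p = 0.0692) and Rgs7 (1.73, adjusted p = 0.117) were not called there. That fit held 10 mice, so fewer mice and less microglial RNA cannot be told apart in it. The part of microglial RNA in these values was not tested.

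Rgs2 lies on chromosome 1 (GRCm38, chr1:143999338-144004161, minus strand), and its exons overlap those of no other annotated gene. Of the 22 RGS and anchor genes, 10 are on chromosome 1. The nearest, Rgs13, lies 134493 bases from Rgs2 and was detected in 6 of 38 libraries. Its highest level was 220 normalised CPM (1445 counts), in 1 NS dVenus- library. Rgs1, at 238135 bases, was detected in none and Rgs18, at 748522 bases, in 1. These genes all lie on the same side of Rgs2. In FC dVenus+ libraries Rgs13 reached at most 14.2 normalised CPM, so these genes did not share the level of Rgs2 there. The 250 bases before the transcription starts of Rgs2 and Rgs7, the called genes with a RefSeq promoter entry (GRCm38.p6), are shown 5′ to 3′ on the gene's strand because CREB-type factors are known to bind TGACG at activity-induced genes. Capitals mark TGACG and its reverse complement CGTCA.
Rgs2 (chr1:144004150-144004399, minus strand): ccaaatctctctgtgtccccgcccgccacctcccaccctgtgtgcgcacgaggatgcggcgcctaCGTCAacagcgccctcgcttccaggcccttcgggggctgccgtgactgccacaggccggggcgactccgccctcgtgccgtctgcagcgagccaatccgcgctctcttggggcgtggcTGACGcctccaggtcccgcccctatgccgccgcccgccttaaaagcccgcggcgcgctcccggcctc
Rgs7 (chr1:175492546-175492795, minus strand): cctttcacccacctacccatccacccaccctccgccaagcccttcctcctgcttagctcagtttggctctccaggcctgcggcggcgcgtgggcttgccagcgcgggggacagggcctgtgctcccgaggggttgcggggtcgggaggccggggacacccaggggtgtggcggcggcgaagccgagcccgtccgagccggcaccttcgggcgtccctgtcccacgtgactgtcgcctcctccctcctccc
The Rgs2 stretch holds 2 such matches, 185 and 67 bases before the start, and the Rgs7 stretch 0. In windows from 250 bases before to 50 after a start, TGACG was found on either strand in 20.8% of the 32851 windows of all genes and in 13 of the 52 windows of the 39 members matched (25%). The longer TGACGTCA, which contains it, was in 1.79% of all windows and in 0 of the 52. Of the other motifs searched, CACGTG was in 7.15% of all windows and in 6 of the 52, and the core of the CArG box of serum response factor in 0.0639% and 0. A match describes letters in the window only.

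Rgs14, an R12 protein that acts on Gi/o and also binds inactive Gi through a GoLoco motif, fell in dVenus+ cells. In FC mice it ran from 5.56 to 227 normalised CPM in dVenus- libraries (median 89.9), with counts in 12 of 12. In dVenus+ libraries it ran from 0 to 51.6 (median 6.29): it had no count in 4 of the 12, 1 count in 2 and between 80 and 665 counts in the others. The log2 fold change was -3.13 (SE 0.81, adjusted p = 0.0229), an 8.74-fold lower level. In mice 10 and 11 it was higher in the dVenus+ library (51.6 against 45.9 and 41.7 against 33.7 normalised CPM), and in the other 10 it was lower. By submission it was lower in 2 of 2, 4 of 4 and 4 of 6 mice, at log2 fold changes of -12.4, -3.83 and -1.92 (adjusted p = 0.521, 0.320 and 0.454).

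In NS mice Rgs14 was at 0, 1.19, 86.1 and 0 normalised CPM in dVenus+ and at 390, 66.8, 85.6 and 242 in dVenus- libraries. In HC mice it was at 0, 0 and 12.2 in dVenus+ and at 97.7, 0 and 171 in dVenus- libraries. Only mouse 20 in NS had a pair at nearly the same level, and mouse 16 in HC had no count in either library. The log2 fold changes, -5.53 in NS (SE 1.75, adjusted p = 0.368) and -5.06 in HC mice (SE 2.32, adjusted p = 0.712), did not pass the test. In the added fit of both groups together Rgs14 was lower by the call rule (log2 fold change -5.43, SE 1.32, adjusted p = 0.04996), beside 0.757% of all genes called there. Without any 1 of the 7 mice that call was lost (adjusted p from 0.0621 to 0.188). Over all groups Rgs14 was lower in 15, higher in 3 and equal in 1 of 19 mice.

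As Rgs14 is known from CA2, 5 genes listed as markers of CA2 and of mossy cells were summed. Their summed level was 196 to 1217 normalised CPM in FC dVenus+ (median 297) and 121 to 1405 in FC dVenus- libraries (median 558). In 8 of 12 mice it was the lower in dVenus+ cells, and the 1 marker tested was not called. In NS mice the sum was the lower in dVenus+ cells in 3 of 4 (351 to 1000 against 752 to 2806), and in HC mice in 2 of 3. Most of this sum was Pcp4, and the CA2 marker Amigo2 had a median of 0 in both cell types. The sum thus describes Pcp4 more than CA2 or mossy cells. Whether Pcp4 came from granule cells here was not tested. Among the granule cell markers, whose sum was lower in dVenus+ cells of 11 of 12 FC, 3 of 4 NS and 3 of 3 HC mice, Calb1 ran from 0.894 to 341 normalised CPM in FC dVenus+ and from 191 to 771 in FC dVenus- libraries. How far the level of Rgs14 goes with these markers was not tested.

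Rgs7, the R7 protein that acts on Go and Gi, rose in FC dVenus+ cells. It had a median of 169 normalised CPM in dVenus+ cells (39.3 to 612) and of 67.4 in dVenus- cells (9.45 to 262), so the groups overlapped. The log2 fold change was 1.83 (SE 0.52, adjusted p = 0.0391), 3.55-fold. It was higher in 10 of 12 mice and lower in mice 04 (39.3 against 250) and 06 (42.0 against 77.9). By submission it was higher in 2 of 2, 2 of 4 and 6 of 6 mice, with log2 fold changes of 2.84, 0.28 and 2.16 (adjusted p = 0.521, 0.945 and 0.124). When each mouse was left out in turn, Rgs7 was called in 3 of 12 fits (adjusted p from 0.00711 to 0.0982), whereas Rgs2 and Rgs14 were called in 12 of 12.

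In NS mice Rgs7 was at 41.5, 32.1, 3.43 and 538 normalised CPM in dVenus+ and at 48.3, 129, 53.1 and 35.9 in dVenus- libraries. In HC mice it was at 18.4, 768 and 203 in dVenus+ and at 72.3, 27.8 and 88.0 in dVenus- libraries. Only mouse 21 of the NS mice had more in dVenus+ cells, against 2 of 3 HC mice. Neither fold change passed the test (-0.66, SE 1.32, adjusted p = 0.909 in NS, and 1.17, SE 1.60, adjusted p = 0.852 in HC mice). The partners of Rgs7 did not rise with it by the test: in FC mice the log2 fold change was -0.05 for Gnb5 (SE 0.55, adjusted p = 0.978) and -0.64 for Rgs7bp (SE 0.31, adjusted p = 0.281). Gpr158, an orphan receptor known to bind Rgs7, had 76.8 normalised CPM in the median of FC dVenus+ and 25.1 in that of dVenus- libraries, higher in 10 of 12 mice, at a log2 fold change of 1.12 (SE 0.57, adjusted p = 0.302).

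**Figure D3:**
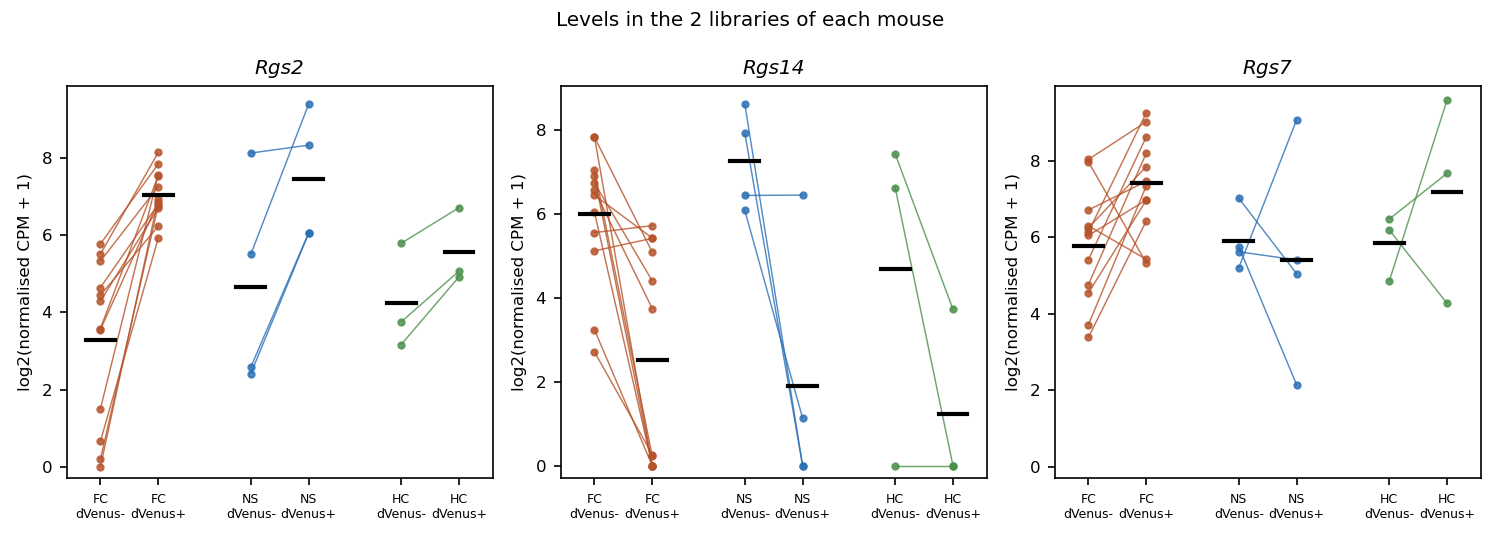
Levels of Rgs2, Rgs14 and Rgs7 as log2(normalised CPM + 1) in the dVenus- and dVenus+ library of each mouse, joined by a line, in FC (12 mice), NS (4) and HC mice (3), with the group mean as a black bar. All 19 lines rise for Rgs2, 15 fall for Rgs14, and for Rgs7 10 of 12 lines rise in FC mice. In HC mouse 15 the rise of Rgs2 rests on the TMM factors.

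The calls of Rgs14 and Rgs7 in FC mice depended on the method, while that of Rgs2 did not in the fits of at least 10 mice. With the older quasi-likelihood method of edgeR, which called 137 genes (1.41% of all tested) in place of 422, Rgs2 alone of the members was called (adjusted p = 0.0280, against 0.117 for Rgs14 and 0.111 for Rgs7). The same was true without mice 03 and 05, without mice 07 and 09, and without a count filter. Of the FC dVenus+ libraries, that of mouse 03 had the fewest reads on genes and that of mouse 05 the fewest genes detected. Without mice 04 and 07, Rgs14 was not called (adjusted p = 0.0655), and Rgs7 was not called without the replicate block (adjusted p = 0.0576) or with the count filter set over all 38 libraries (adjusted p = 0.0765). DESeq2's Wald test called 7 members, these 3 and Gna13, Gnai3, Gnb2 and Gng13, all 4 of them lower, where it called 17.0% of all genes.

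The other R4, RZ and R12 genes did not pass the test in FC mice. Rgs4, which acts on Gi/o and Gq, had a median of 81.4 normalised CPM in dVenus+ cells (34.9 to 254) and of 49.5 in dVenus- cells (0 to 224), at a log2 fold change of 1.34 (SE 0.65, adjusted p = 0.282). In NS mice it was at 67.1, 118, 35.1 and 235 in dVenus+ and at 13.1, 105, 1.11 and 7.60 in dVenus- libraries, higher in 4 of 4 (log2 fold change 2.95, SE 1.34, adjusted p = 0.553). Over all groups Rgs4 was higher in 14 of 19 mice. Rgs17, Rgs19 and Rgs20 of the RZ family had log2 fold changes between -0.59 and 0.41, and Rgs8, an R4 gene, was at -1.46 (SE 0.97, adjusted p = 0.460). Of the R7 genes, Rgs9 was at -1.46 (SE 0.95, adjusted p = 0.449).

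Of the 10 G alpha genes tested in FC mice, 8 had a log2 fold change below 0 and none was called. At an unadjusted p under 0.05 were Gnai3, a Gi subunit (-2.497, SE 1.12, adjusted p = 0.231), Gna13, of the G12/13 class (-2.37, SE 1.12, adjusted p = 0.262), and Gnaz, the pertussis toxin-insensitive relative of Gi (-1.97, SE 0.94, adjusted p = 0.270). Each was low and uneven. Gna13, for example, ran from 0 to 53.2 normalised CPM in dVenus+ and from 0.305 to 65.6 in dVenus- libraries. The abundant subunits had smaller values: Gnas -0.44 (SE 0.41, adjusted p = 0.629), Gnaq -0.55 (SE 0.42, adjusted p = 0.533), Gna11 0.19 (SE 0.53, adjusted p = 0.899) and Gnao1 0.56 (SE 0.36, adjusted p = 0.449). By normalised CPM, Gnao1 was higher in dVenus+ cells of 16 of 19 mice. In HC mice it was at 283, 202 and 221 normalised CPM in dVenus+ and at 80.8, 146 and 179 in dVenus- libraries. In HC mice 16 and 17 this direction rests on the TMM factors. Per reads on genes alone, Gnao1 was lower in dVenus+ cells of these mice. Reads of Gnas cover several transcripts of an imprinted locus with antisense transcripts, and the library kit does not keep the strand.

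Of the G beta genes tested in FC mice none was called. Gnb2 had a median of 37.6 normalised CPM in dVenus+ cells (3.25 to 89.4) and of 89.7 in dVenus- cells (52.5 to 250), with a log2 fold change of -1.46 (SE 0.52, adjusted p = 0.112). Gnb1, the main subunit, was at -0.18 (SE 0.27, adjusted p = 0.804), the smallest standard error among the members tested. Of the 7 G gamma genes tested, 0 were called. Gng2 was lower in 11 of 12 FC mice, with 32.3 to 326 normalised CPM in dVenus+ (median 146) and 59.8 to 402 in dVenus- libraries (median 240), at a log2 fold change of -0.89 (SE 0.35, adjusted p = 0.156). Gng13, known from taste and olfactory transduction and from retina, had a median of 2.21 in dVenus+ cells (0 to 27.0) and of 11.6 in dVenus- cells (2.45 to 34.4), at -1.77 (SE 0.69, adjusted p = 0.151). Over all groups it was lower in 16 of 19 mice. Exons of Gng13 overlap Chtf18 on the opposite strand, so these reads cannot be assigned for certain.

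Gng4, a G gamma gene below the count filter in all 3 groups, was singled out after its values were seen. It had counts in 7 of 12 FC dVenus+ libraries, up to 21.9 normalised CPM, and 1 count in 1 of 12 FC dVenus- libraries. In NS mice it was at 0, 3.27, 0.807 and 11.2 in dVenus+ and at 0, 2.17, 0 and 0 in dVenus- libraries, and in HC mice at 1.10, 0 and 188 against 0.964, 0 and 0. By normalised CPM it was thus higher in 12, lower in 0 and equal in 7 of 19 mice. In HC mouse 15 this direction rests on the TMM factors, with 13 counts in the dVenus- and fewer in the dVenus+ library. Per reads on genes alone, Gng4 was lower in dVenus+ cells of that mouse. The share of all genes with such a pattern was not taken. It was tested in no group.

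In NS mice, 0 of 32 members were called, against 0.0489% of all 8187 genes tested (0.0366% higher and 0.0122% lower). At an unadjusted p under 0.05 were 7 members (8.67% of all genes), 5 higher (4.21%) and 2 lower (4.46%). In dVenus+ cells of every NS mouse 6 members were higher (9.52% of all genes) and 2 lower (7.66%). DESeq2's Wald test called 5 members in NS mice: Gnai2, Rgs10 and Rgs2 higher, Gng12 and Rgs14 lower, where it called 8.2% of all genes. Gnai2, a Gi subunit abundant in glia and immune cells as well as neurons, was at 23.9, 152, 30.7 and 186 normalised CPM in dVenus+ and at 0, 10.6, 6.89 and 12.1 in dVenus- libraries. The groups did not overlap, as for 3.13% of all genes tested. The log2 fold change was 3.64 (SE 1.37, adjusted p = 0.510), whereas in FC mice it was -0.20 (SE 0.75, adjusted p = 0.930). The difference between these was -3.92 (SE 1.42, p = 0.00942, adjusted p = 0.547 for the interaction).

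Rgs10, an R12 protein known for its high level in microglia, was at 0.135, 4.17, 234 and 78.9 normalised CPM in NS dVenus+ and at 0, 0, 0 and 12.2 in dVenus- libraries (log2 fold change 5.18, SE 2.27, adjusted p = 0.547). Its values were high in mice 20 and 21 only. The summed microglial markers of the same dVenus+ libraries were 105, 651, 1905 and 1221, with the highest sums in mice 20 and 21 as well. Those of the dVenus- libraries were 18.1, 97.1, 7.84 and 745. In HC mice Rgs10 was at 118 normalised CPM in the dVenus+ library of mouse 17 and at 0 in those of mice 15 and 16. The microglial sum there was 551 in mouse 17, against 1888 and 1469 in mice 15 and 16, so Rgs10 was found where the sum was lowest. In HC dVenus- libraries Rgs10 ran from 0 to 32.2. In FC mice Rgs10 ran from 0 to 78.9 in dVenus+ and from 0 to 35.6 in dVenus- libraries, at a log2 fold change of 0.86 (SE 1.31, adjusted p = 0.801). The part of microglial RNA in the values of Rgs10 and Gnai2 was not tested.

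Gng12, a G gamma gene expressed in many tissues, showed the opposite direction in NS mice, with 0.270, 0, 0.403 and 0 normalised CPM in dVenus+ and 16.3, 12.6, 23.4 and 32.6 in dVenus- libraries. All dVenus+ libraries, with at most 2 counts each, lay below all dVenus- libraries, as for 2.85% of all genes tested. The log2 fold change was -6.60 (SE 2.49, adjusted p = 0.510). In FC mice it was 0.52 (SE 1.31, adjusted p = 0.886), and the difference between the groups was 7.12 (SE 3.10, p = 0.0300, adjusted p = 0.590).

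Rgs9bp, the anchor of the R7 dimer of Rgs9, was low in all libraries. In NS mice it was at 2.16, 5.36, 5.04 and 6.77 normalised CPM in dVenus+ and at 1.52, 1.08, 0.713 and 0.480 in dVenus- libraries, without overlap (log2 fold change 2.40, SE 1.03, adjusted p = 0.547). In HC mice it was at 3.02, 1.40 and 2.52 against 0.593, 0 and 0.584. It was thus higher in 7 of 7 mice without shocks, on 3 to 29 counts per dVenus+ library. The added fit of these mice called it (log2 fold change 2.16, SE 0.50, adjusted p = 0.0362), and that call was lost in each of the 6 fits without 1 mouse in which it passed the filter (adjusted p from 0.0609 to 0.161). In FC mice it ran from 0.335 to 2.94 in dVenus+ and from 0.266 to 2.38 in dVenus- libraries and was below the filter.

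**Figure D4:**
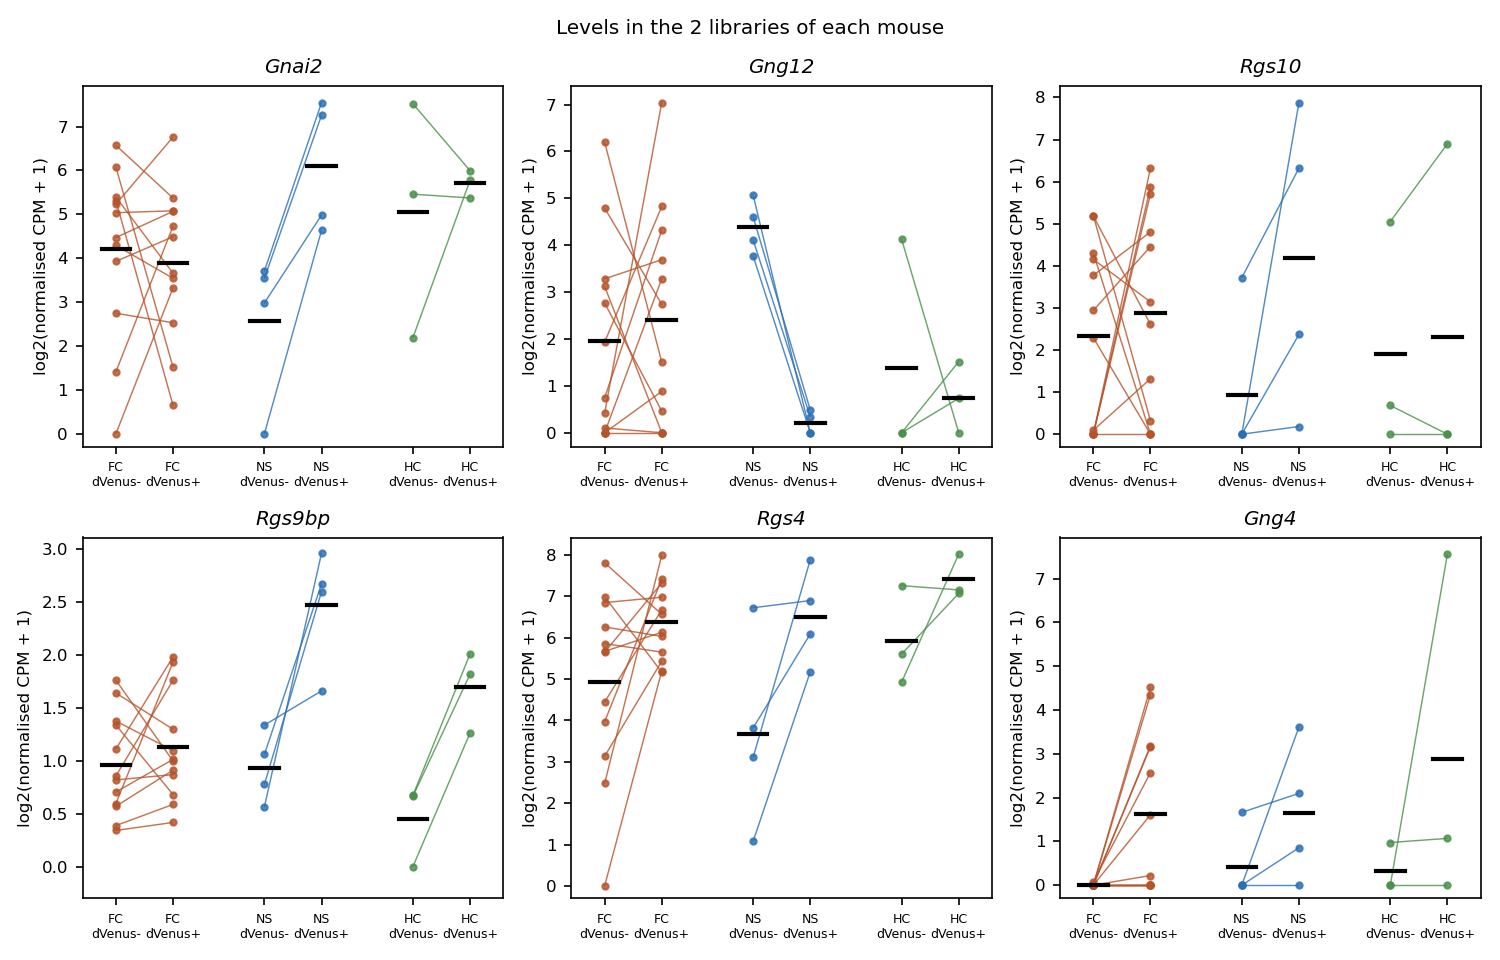
Levels of Gnai2, Gng12, Rgs10, Rgs9bp, Rgs4 and Gng4 as log2(normalised CPM + 1) in the dVenus- and dVenus+ library of each mouse, joined by a line, in FC, NS and HC mice, with the group mean as a black bar. In NS mice all 4 lines rise for Gnai2, Rgs10, Rgs9bp and Rgs4 and all 4 fall for Gng12, while in FC mice lines of Gnai2, Gng12 and Rgs10 run both ways.

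In HC mice, 0 of 29 members and 0 of all 7588 genes tested (0.0%) were called by edgeR, and DESeq2's Wald test called 0 members and 8.24% of all genes. At an unadjusted p under 0.05, 0 members were higher (3.8% of all genes) and 1 was lower (3.22%, and 7.01% in either direction). This was Gng7, the partner of Golf in striatum, at 8.78, 0 and 116 normalised CPM in dVenus+ and 174, 16.5 and 478 in dVenus- libraries (log2 fold change -3.48, SE 1.40, adjusted p = 0.677). In FC mice Gng7 was at -1.14 (SE 0.56, adjusted p = 0.282) and lower in 14 of 19 mice over all groups. By normalised CPM, 6 members were higher in dVenus+ cells of every HC mouse (17.5% of all genes) and 2 lower (12.3%). The dVenus+ libraries lay above all dVenus- libraries for Gnao1, Gng5 and Rgs9 (9.17% of all genes) and below them for Gnaq (5.92%). For Gnao1 this rests on the TMM factors in mice 16 and 17, and for Rgs2 the direction does so in mouse 15. Of the 47 members in the fit of all libraries, 0 had a dVenus difference that differed between FC and NS, FC and HC or NS and HC mice, against 0.0% of 14075 genes in each. Some of the 47 had no counts in a group of libraries, among them Gna12, Gna15, Gnat2, Gnb4, Gng8 and Rgs22. Some of their contrasts had very large standard errors (88287 for Gna15 in FC against NS) and could not show a difference. At an unadjusted p under 0.05 were 3 members in FC against NS (Gnai2, Rgs8 and Gng12), 1 in FC against HC (Rgs9) and 2 in NS against HC (Gng10 and Gnai3), where 8.18%, 9.26% and 6.88% of all genes were. DESeq2's Wald test called 3, 1 and 4 of the 47 members in these comparisons, where it called 9.18%, 11.9% and 10.4% of all genes.

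Genes around the members in the pathway were taken as 3 lists. Of 23 regulators (arrestins, receptor kinases and other binding proteins), 18 were tested in FC mice and 0 were called. Besides Gpr158, the one with the smallest unadjusted p was Adrbk1, the receptor kinase GRK2, at a log2 fold change of -1.07 (SE 0.59, adjusted p = 0.357). Of 21 effectors, 14 were tested, 1 was called higher and 2 lower, and the median log2 fold change was -1.13. Of 41 receptors, 18 were tested, 0 were called higher and 2 lower, with a median of -0.98. Over all genes tested 1.5% were called higher and 2.84% lower and the median was -0.11, and in NS and HC mice none of these genes was called.

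The called effectors included adenylyl cyclases of both directions. Adcy8, a calcium-stimulated cyclase, had a median of 42.3 normalised CPM in FC dVenus+ cells (0 to 1115) and of 1.02 in dVenus- cells (0 to 46.2), at a log2 fold change of 3.73 (SE 0.83, adjusted p = 0.00768). It was higher in 10 of 12 FC mice and lower in 3 of 3 HC mice, a difference between the groups of 6.56 that did not pass adjustment (SE 1.96, adjusted p = 0.399). Adcy1, also stimulated by calcium, had a median of 124 in dVenus+ cells (23.3 to 217) and of 451 in dVenus- cells (125 to 773), lower in 12 of 12 FC mice (-1.65, SE 0.36, adjusted p = 0.00768). Arhgef25, an effector of Gq, was lower in 11 of 12 FC mice (-2.36, SE 0.52, adjusted p = 0.00829).

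The called receptors both couple to Gi/o. Npy2r, a receptor of neuropeptide Y, had counts in 7 of 12 FC dVenus+ libraries (median 0.208 normalised CPM, highest 43.1) and in 12 of 12 dVenus- libraries (10.2 to 161, median 45.9). It was lower in 12 of 12 mice, at a log2 fold change of -4.41 (SE 0.79, adjusted p = 7.95e-04). Grm2, a presynaptic metabotropic glutamate receptor, was lower in 10 of 12 FC mice, with medians of 11.4 in dVenus+ and 86.8 in dVenus- libraries (-2.58, SE 0.60, adjusted p = 0.0111).

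**Figure D5:**
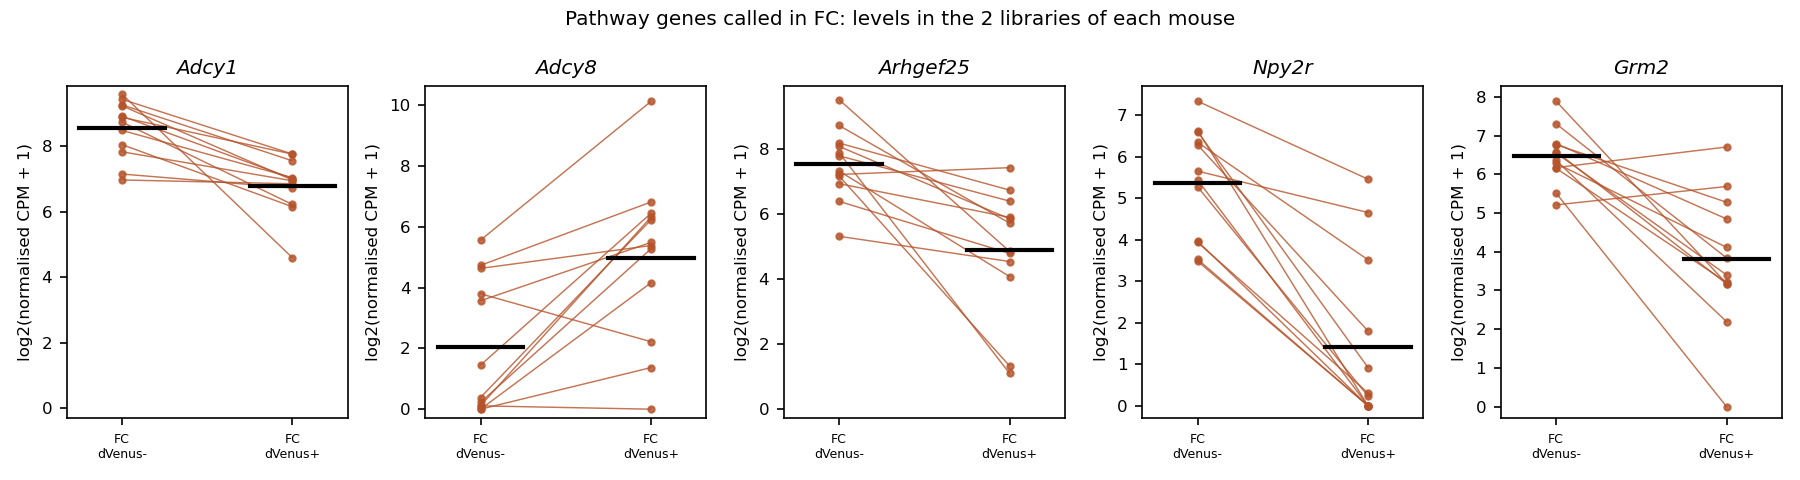
Levels of the 5 pathway genes called in FC mice, as log2(normalised CPM + 1) in the dVenus- and dVenus+ library of each of the 12 FC mice, joined by a line, with the mean as a black bar. All 12 lines fall for Adcy1 and Npy2r, 11 for Arhgef25 and 10 for Grm2, and 10 rise for Adcy8.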

How the data were processed

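Per the labels and the study's methods, the authors aligned single reads to mm10 with TopHat2 (2.0.13) and counted unique reads on NCBI transcripts with HTSeq (0.6.0). The values they deposited are raw counts per gene of 38 libraries. Entries that name no gene were left out, and reads outside genes came to 16.4% to 59.7% per library. A deposited table of all libraries was not used.

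Each group was fitted in edgeR 4.0.16 (R 4.3.3): TMM, mouse as block, genes reaching 10 counts in a number of libraries no smaller than that of mice, glmQLFit with legacy=FALSE. That setting follows an earlier analysis of these data and was kept after the default (the older method) had been seen to call fewer genes. Interactions used all 38 libraries and genes with 10 counts in 3. Both tests are two-sided, with Benjamini-Hochberg adjustment over all genes tested. Alternatives included DESeq2 1.42.0. The code was tested on simulated data. The pair of a mouse comes from 1 animal. The median correlation of the pair's deviations from the group means was 0.0388 (FC), -0.0174 (NS) and 0.0109 (HC). Exon lengths and overlaps are from GENCODE (GRCm38). Named were the members called, those with an absolute log2 fold change over 1 and an unadjusted p under 0.05, the 3 highest per length in each class, and Gnas, Gnao1, Gnaq, Rgs2, Rgs4, Rgs10 and Rgs14. In each pathway list the called genes and the 2 with the smallest p in FC mice were named. The members, lists and rules were chosen with earlier results of these data known.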

Additional observations from a re-analysis of the deposited data

Results flagged for a closer look

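Among 48 groups of 4 NS libraries, 2 for each of 24 named members, 4 held a library flagged as far from the other 3 on the log2(normalised CPM + 1) scale. Chance gives about 1 in 20 for normally distributed values. For Rgs10 and Gnai3 the other 3 libraries were at 0, so any level above 0 in the remaining library was flagged. That rate does not hold for such groups. Rgs10 was at 12.2 normalised CPM in the dVenus- library of mouse 21 and at 0 in the other 3. Gng10 was at 310 in the dVenus- library of mouse 20, against 127 to 146. Gnai3 was at 0.674 (5 counts) in the dVenus+ library of mouse 18 and at 0 in the others, and Gnaz at 0.234 (1 count) in that of mouse 21, against 1.79 to 2.02.

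Gng10 was lower in the dVenus+ library of 4 of 4 NS mice and higher in that of 3 of 3 HC mice. The mean difference within mice was -1.40 in NS and 2.66 in HC mice on the log2(normalised CPM + 1) scale. The interaction in edgeR was -4.70 (SE 1.96, p = 0.0236) and did not pass adjustment (adjusted p = 0.652). In HC mouse 16 the direction rests on 2 counts against 1.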

How the results depend on the processing

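In FC mice 3 members were called. DESeq2's Wald test called 7, and the fit without a count filter, the older quasi-likelihood method, and the fits without mice 03 and 05 or, chosen after the values were seen, without mice 07 and 09 called 1 each (Rgs2). Each submission alone, with fewer mice, called 0. For the others the cause was not tested. Leaving out single mice gave 2 to 3, and without the replicate block 2 were called (Rgs14 and Rgs2). In NS mice 0 members were called, by DESeq2's Wald test 5 and in the joint fit of NS and HC mice 2. For HC mice the joint fit gave 2 in place of 0. The other alternatives, leaving out single mice included, called 0 members in NS and in HC mice. In the interactions, where 0 members were called, DESeq2's Wald test called 3 (FC against NS), 1 (FC against HC) and 4 (NS against HC), and the other alternatives 0.

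Over all genes, 422 were called in FC mice, against 1651 by DESeq2's Wald test, 137 by the older method, 272 without mice 03 and 05, 276 without mice 07 and 09, and 0, 12 and 15 in the submissions alone. In NS mice 4 were called, against 671 by DESeq2's Wald test, 13 without the replicate block, 11 with DESeq2's size factors, 1 with either other filter, 0 by the older method and 0 to 2 without single mice. In HC mice 0 were called, against 625 by DESeq2's Wald test and 2 by the older method. The interactions went from 0 to 1292, 1672 and 1457 genes with DESeq2's Wald test and to 14, 8 and 32 without the replicate block.

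DESeq2's size factors moved the median interaction over all genes from -0.43 to -0.26 (FC against NS) and from -0.58 to -0.30 (FC against HC). Of 414 fold changes of named members under an alternative, 412 kept their direction. In the submission with 2 FC mice, Gnai3 turned to 1.05 and Gnas to 0.0397. The spread between pools was wide, at a common coefficient of variation of 1.20 (FC), 1.42 (NS) and 1.42 (HC), with 4 NS and 3 HC mice.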
